A study of Mus musculus with 2 samples.

Results

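The 10 genes described here encode C-type lectin receptors of myeloid cells: Clec4a1, Clec4a2, Clec4a3, Clec4n, Clec4d, Clec4e, Clec5a, Clec7a, Clec12a and Clec2d. They were chosen by gene symbol, with their values on these arrays known, and each was matched to 1 probe set, so that the 10 probe sets stand beside 22180 named genes measured by 41345 probe sets in all. Of the 1814 probe sets that carry several symbols, 0 named one of the 10 genes. Messenger RNA was measured on 2 Affymetrix arrays, 1 from RAW264.7 cells labelled HuR-deficient and 1 from wildtype RAW264.7 cells, an established mouse macrophage line. Both cultures had been transfected for 8 hours with poly(I:C) of high molecular weight, a synthetic double-stranded RNA, carried by lipofectamine 2000 at a labelled dose of 1 mg/ml. No culture without poly(I:C) was analysed here, and the labels do not say how the HuR-deficient cells were made or whether they were 1 clone.

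C-type lectin receptors recognise sugars, lipids and products of damaged cells at the surface of macrophages, dendritic cells and neutrophils. Activating members signal through the kinase Syk and then through Card9 to NF-kappaB. They reach Syk with a tyrosine motif of their own or through the adaptors Fcer1g (the Fc receptor gamma chain) and Tyrobp (DAP12). Some also work with a further adaptor, Hcst (DAP10). Inhibitory members carry a tyrosine motif that recruits the phosphatases Ptpn6 and Ptpn11. HuR, the product of Elavl1, is an RNA-binding protein known for stabilising mRNAs rich in AU and U stretches.

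Each value below is the log2 signal of 1 probe set on 1 array, and each difference is the value labelled HuR-deficient minus the wildtype value. There were no replicates, so no test could be run and no error can be given. Signals of different probe sets depend on their probes and were not ranked against each other. Genes entered the counts below when at least 1 of their signals reached a floor of 4.38, the median signal of all named genes, and 11905 genes did. Elavl1 itself had a signal of 7.75 on the array labelled HuR-deficient and 7.68 on the wildtype array, a difference of 0.07, and the labels do not say which part of Elavl1 was disrupted. The genotype label therefore could not be checked. The arrays correlated with a Pearson r of 0.970 across probe sets, and the median difference was 0 over all named genes and over those that passed the filter.

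Of the 10 receptor genes, 8 had a difference below 0 and 2 above 0, with a median of -0.84. Clec4a1, 1 of the 2 above 0, did not pass the filter. The 9 that passed had a median of -0.92. That median is the value of Clec4n, whose signal lay under the floor on the array labelled HuR-deficient. Of all genes that passed the filter, 48.6% lay below 0. Among the 9 receptor genes, 4, namely Clec4a2, Clec4a3, Clec4d and Clec7a, were at least 2-fold lower on the array labelled HuR-deficient, while 0 were at least 2-fold higher. Over all genes that passed, 1.11% were lower by 2-fold or more and 0.882% were higher by as much. The genes were chosen with these differences known, so the counts describe the list and nothing is read from the gap between them and the shares over all genes. Just outside the 2-fold threshold (a log2 difference of 1) lay Clec4n at -0.92 and Clec4e at -0.77, and just inside it lay Clec7a at -1.04. In a culture measured as a whole, fewer cells with an mRNA and less of it per cell cannot be told apart.

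**Figure D1:**
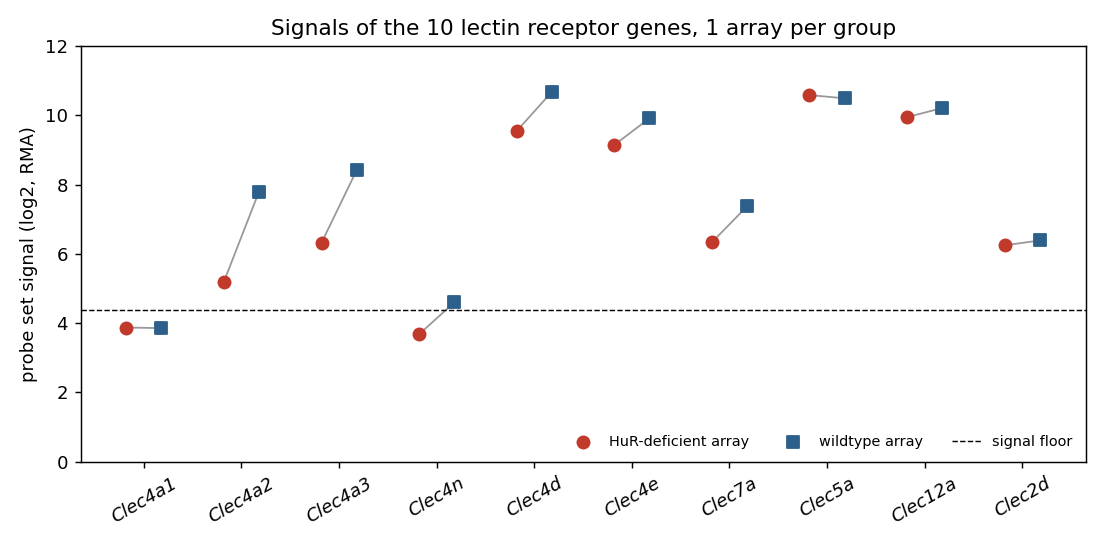
Log2 probe set signals of the 10 lectin receptor genes, with the array labelled HuR-deficient as circles on the left and the wildtype array as squares on the right of each pair, and the signal floor of 4.38 as a dashed line. Clec4a2 and Clec4a3 show the widest gaps, Clec4a1 lies under the floor on both arrays, and Clec4n lies under it on the array labelled HuR-deficient.

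The promoters of the 4 genes that were at least 2-fold lower are printed because these genes lay on the same side, and that of Clec5a because its signals nearly coincided. They are RefSeq windows of assembly GRCm38.p6, read 5′ to 3′ on the gene's own strand, from 250 bases before the annotated start to 50 bases after it. Capitals mark every match to 1 of 6 short motifs, searched on both strands: GAGGAAG for PU.1 (the product of Spi1), TGANTCA for AP-1, TTNNGNAAT for C/EBP, GAAANNGAA for the interferon-stimulated response element, GGGNNTTCC for NF-kappaB and CACGTG for E-box factors. No matches overlapped in the windows printed.
Clec4a2 promoter, chr6:123122440-123122739, plus strand: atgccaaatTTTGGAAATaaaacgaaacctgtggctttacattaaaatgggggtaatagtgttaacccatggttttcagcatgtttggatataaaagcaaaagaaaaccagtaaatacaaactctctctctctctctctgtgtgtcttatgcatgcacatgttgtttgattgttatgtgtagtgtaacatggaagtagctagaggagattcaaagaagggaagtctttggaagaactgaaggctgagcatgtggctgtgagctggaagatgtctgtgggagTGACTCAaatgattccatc
Clec4a3 promoter, chr6:122952265-122952564, plus strand: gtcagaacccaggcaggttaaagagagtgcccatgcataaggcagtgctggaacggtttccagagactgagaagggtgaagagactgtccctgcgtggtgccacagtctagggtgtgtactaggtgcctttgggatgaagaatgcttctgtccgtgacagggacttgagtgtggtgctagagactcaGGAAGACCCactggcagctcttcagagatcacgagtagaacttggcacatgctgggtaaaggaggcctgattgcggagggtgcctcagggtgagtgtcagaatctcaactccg
Clec4d promoter, chr6:123261857-123262156, plus strand: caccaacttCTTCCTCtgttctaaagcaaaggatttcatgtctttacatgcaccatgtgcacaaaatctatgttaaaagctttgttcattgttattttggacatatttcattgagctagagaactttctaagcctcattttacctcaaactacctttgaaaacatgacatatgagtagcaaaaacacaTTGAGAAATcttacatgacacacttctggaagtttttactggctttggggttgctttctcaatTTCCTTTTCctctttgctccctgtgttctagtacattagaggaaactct
Clec7a promoter, chr6:129472730-129473029, minus strand: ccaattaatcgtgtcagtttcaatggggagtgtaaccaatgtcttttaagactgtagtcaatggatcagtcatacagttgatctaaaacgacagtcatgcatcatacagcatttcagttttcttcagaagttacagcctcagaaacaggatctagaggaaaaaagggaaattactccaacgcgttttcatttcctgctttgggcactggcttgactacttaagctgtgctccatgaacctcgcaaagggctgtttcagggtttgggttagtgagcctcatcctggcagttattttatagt
Clec5a promoter, chr6:40585756-40586055, minus strand: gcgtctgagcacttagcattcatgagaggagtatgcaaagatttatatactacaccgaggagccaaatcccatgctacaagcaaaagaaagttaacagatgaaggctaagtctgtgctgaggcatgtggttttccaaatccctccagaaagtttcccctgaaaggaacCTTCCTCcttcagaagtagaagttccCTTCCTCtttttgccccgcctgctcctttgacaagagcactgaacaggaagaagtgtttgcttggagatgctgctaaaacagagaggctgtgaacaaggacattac

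Such a window was found for 9 of the 10 genes, Clec4n being the one without. The Clec4a2 window held a C/EBP match 241 to 233 bases before the start and an AP-1 match 32 to 38 bases into the transcript. The Clec4d window held a PU.1 match at 241 to 235 bases before the start, a C/EBP match at 62 to 54 bases before it and a response element match over bases 2 to 10 of the transcript. The Clec4a3 window printed held an NF-kappaB match at 63 to 55 bases before its start. RefSeq lists 2 windows each for Clec4a3 and Clec7a, of which the first listed is printed, and from the other Clec4a3 start the same match lies 192 to 184 bases upstream. Clec7a had 0 matches to the 6 motifs in either window, and Clec4e had 0 in its own. Clec5a, whose difference was 0.09, held 2 PU.1 matches, beginning 82 and 56 bases before the start.

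PU.1 matches were thus present for 4 of the 9 genes (Clec4a1, Clec4d, Clec5a and Clec12a), against 13.6% of all 32851 windows of this length. C/EBP matches were present for 3 (Clec4a2, Clec4d and Clec12a; 11.5% of all windows), AP-1 matches for 2 (Clec4a2 and Clec12a; 7.81%) and response element matches for 2 (Clec4d and Clec2d; 8.56%). An NF-kappaB match was present for 1 (Clec4a3; 5.82%) and an E-box match for 0 (7.15%). None of the 6 motifs was shared by all 4 genes that were at least 2-fold lower. The GC content of the 9 windows ran from 36% (Clec4d) to 54.3% (Clec4a3), and all but Clec4a3 lay below the median of 52.7% over all windows. How often short motifs match depends on base content, which was not matched. The shares over all windows are therefore no like background, and nothing is read from the gap. A match is a string of letters in this window and not a shown site, and no match says only that these letters are not there.

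Clec4a2, Clec4a3 and Clec4a1 belong to the mouse DCIR group, relatives of the single human receptor gene CLEC4A. Clec4a2 encodes DCIR1, an inhibitory receptor that restrains dendritic cells and macrophages. Its probe set (17462764) had a signal of 5.19 on the array labelled HuR-deficient and 7.80 on the wildtype array, a difference of -2.60, or 6.08-fold lower. Of the 11905 genes that passed the filter, 8, Clec4a2 included, had a difference this low or lower. Both signals lay above the floor, so the receptor gene still gave a signal above it on the array labelled HuR-deficient.

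Clec4a3 encodes DCIR3. It had a signal of 6.32 on the array labelled HuR-deficient and 8.41 on the wildtype array, a difference of -2.09, or 4.26-fold lower, which 16 genes, itself included, equalled or exceeded downward. Clec4a2 and Clec4a3 were 2 of the 19 genes that were at least 4-fold lower, a share of 0.160% of genes that passed the filter. Clec4a1, which encodes DCIR4, had 3.87 on the array labelled HuR-deficient and 3.85 on the wildtype array. It lay under the floor on both arrays and did not pass the filter, so its difference of 0.02 cannot be read as an equal level. Genes of the DCIR group are alike in sequence. Whether the Clec4a2 and Clec4a3 probe sets read each other's transcripts was not tested.

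Clec4n, Clec4d and Clec4e encode activating receptors that work with the Fcer1g chain. Clec4d encodes MCL, also called Dectin-3, a receptor for mycobacterial cord factor. Its signal was 9.54 on the array labelled HuR-deficient and 10.67 on the wildtype array, a difference of -1.13, or 2.19-fold lower, with 81 genes, Clec4d included, this low or lower. Clec4e encodes Mincle, a receptor for cord factor and for the nuclear protein Sap130 of dead cells, which pairs with MCL at the cell surface. Its signal was 9.14 on the array labelled HuR-deficient and 9.91 on the wildtype array, a difference of -0.77, or 1.70-fold lower, short of 2-fold. For Mincle, 2.55% of the genes that passed the filter had a difference as low or lower.

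Clec4n encodes Dectin-2, a receptor for fungal mannans. It had 3.68 on the array labelled HuR-deficient, under the floor, and 4.60 on the wildtype array, just above it. Its difference of -0.92 therefore rests on a weak signal whose lower side was not shown to lie above background, and it passed the filter only through the wildtype array. The 3 receptor genes all lay below 0, with differences between -1.13 and -0.77.

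Clec7a encodes Dectin-1, the main receptor for fungal beta-glucan, which carries its own Syk-binding motif and needs no adaptor. Its signal was 6.33 on the array labelled HuR-deficient and 7.37 on the wildtype array, a difference of -1.04, or 2.05-fold lower. It lay just past the threshold, with 120 genes, Clec7a included, this low or lower. Clec5a encodes MDL-1, which signals through Tyrobp and Hcst and is known as a receptor for dengue virus. It had 10.58 on the array labelled HuR-deficient and 10.49 on the wildtype array, a difference of 0.09, and 77.5% of genes that passed the filter differed by at least as much in either direction.

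Clec12a encodes MICL, an inhibitory receptor for uric acid crystals and dead cells. Its signal was 9.94 on the array labelled HuR-deficient and 10.21 on the wildtype array, a difference of -0.26. Clec2d encodes Clr-b, which acts in mice as a ligand for inhibitory receptors of the NKR-P1 family on NK cells and so lets them spare healthy cells. It had 6.25 on the array labelled HuR-deficient and 6.39 on the wildtype array, a difference of -0.14. Differences of at least this size were seen in 42.8% of genes that passed the filter for Clec12a and in 67.3% for Clec2d. The inhibitory receptors thus did not lie together: Clec4a2 was 6.08-fold lower and Clec12a 1.20-fold lower. Nor did the activating ones, with Clec4d 2.19-fold lower and Clec5a 1.07-fold higher.

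**Figure D2:**
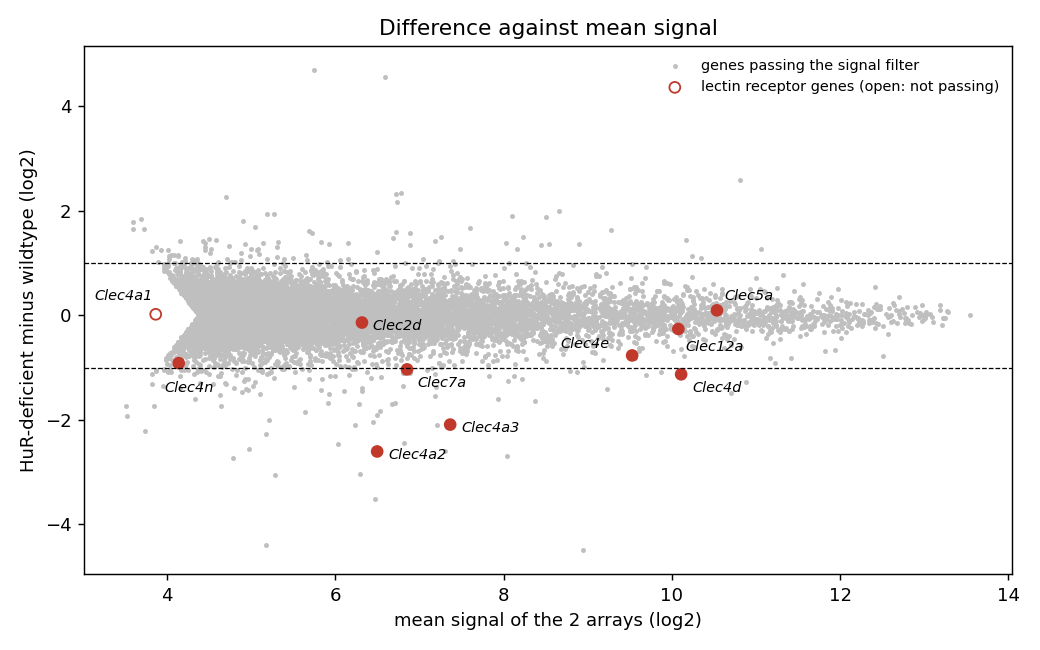
Difference (array labelled HuR-deficient minus wildtype array, log2) against the mean signal of both arrays for the 11905 genes that passed the filter, in grey, with the 10 lectin receptor genes in red and Clec4a1, which did not pass, open. Dashed lines mark 2-fold. Clec4a2 (-2.60), Clec4a3 (-2.09) and Clec4d (-1.13) lie below the lower dashed line, while Clec5a (0.09), Clec12a (-0.26) and Clec2d (-0.14) lie near 0.

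All 10 genes lie on mouse chromosome 6. They were chosen as relatives of 1 family, and most lie in runs of such genes. The shared chromosome thus came with the choice and is no result of these arrays. In the order of protein-coding genes of GRCm38.p6, 6 of them fall in 1 run of 9 lectin genes from Clec4a1 to Clec4e. These 6 had a median difference of -1.02 and the other 4 a median of -0.20. Of the 9 genes in the run, 5 passed the filter. All 5 belong to the list chosen with its differences known, and Clec4n passed only through the wildtype array, so their shared direction describes the choice and shows nothing about the region. In order, the 5 differed by -2.09 (Clec4a3), -2.60 (Clec4a2), -0.92 (Clec4n), -1.13 (Clec4d) and -0.77 (Clec4e). The other 4 genes of the run, Clec4a1, Clec4a4, Clec4b1 and Clec4b2, lay under the floor on both arrays.

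On the side of Clec4a1, the neighbouring genes had differences near 0. C3ar1, which encodes the receptor for complement fragment C3a, had 5.97 on the array labelled HuR-deficient and 6.07 on the wildtype array, a difference of -0.11. Necap1, a gene of clathrin-coated vesicles that lies between C3ar1 and Clec4a1, had 10.70 on the array labelled HuR-deficient and 10.71 on the wildtype array, a difference of -0.0061. On the side of Clec4e, the vomeronasal receptor genes Vmn2r19 (difference -1.07) and Vmn2r20 (difference 0.62) were under the floor on both arrays, so nothing can be read from that side.

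**Figure D3:**
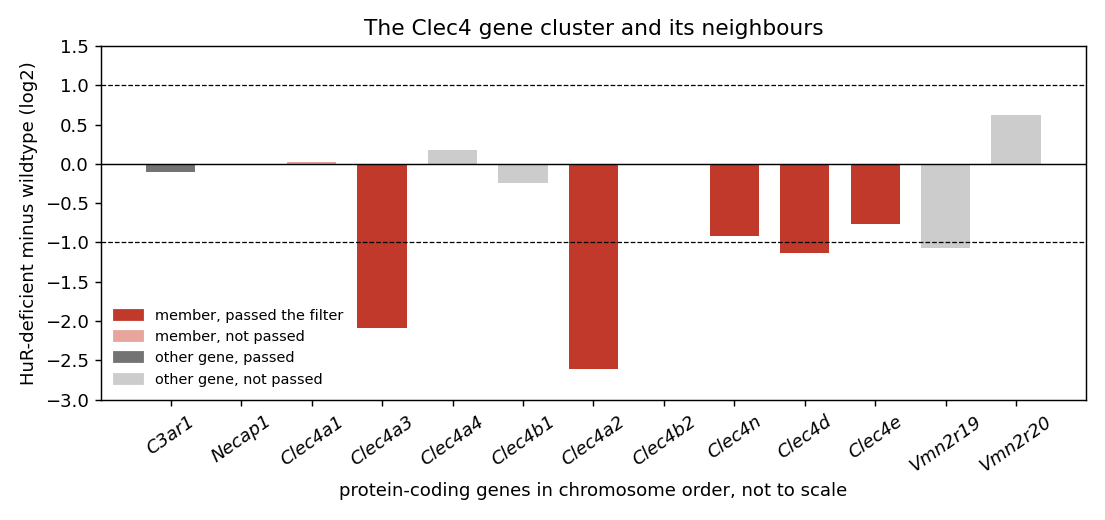
Difference (array labelled HuR-deficient minus wildtype array, log2) for the protein-coding genes of the Clec4 run and the 2 genes on either side, in chromosome order and not to scale; red bars are receptor genes of the list, grey bars other genes, and pale bars genes that did not pass the signal filter. Clec4a3, Clec4a2, Clec4n, Clec4d and Clec4e lie below 0, Necap1 and Clec4b2 have bars too short to see, and Vmn2r19 is under the floor on both arrays.

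Clec2d, Clec12a and Clec7a lie in a second run, the NK gene complex. From Clec2d to Clec7a there are 9 protein-coding genes, of which 8 had a probe set of their own and 4 passed the filter: the 3 receptor genes and Clec1b, which encodes the podoplanin receptor CLEC-2. Clec1b had the same signal, 6.02, on both arrays. The 2 values were identical to the last digit given, as they were for Clec4b2. Why was not tested, so the tie is not read as an equal level. Cd69, Clec2m, Clec12b and Clec1a were under the floor on both. Clec7a, at -1.04, was thus the gene of this run that reached 2-fold.

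The wider families were examined from lists of related genes that were drawn up with earlier results of these data known. Of 41 other C-type lectin genes measured, 11 passed the filter, 0 were lower and 1 was higher by 2-fold or more, with a median difference of 0.06 over the 41. The higher one, Clec2l, had 4.69 on the array labelled HuR-deficient and 3.67, under the floor, on the wildtype array (difference 1.02), and it was no longer 2-fold higher once a loess trend on mean signal had been removed. The lowest of those that passed was Colec12, which encodes a scavenger receptor with a collagen stem, at -0.40. Cd209c, a relative of DC-SIGN, had 10.69 on the array labelled HuR-deficient and 10.77 on the wildtype array.

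Of 27 measured mRNAs for adaptors and signalling proteins of the receptors, 23 passed the filter and 0 of these were 2-fold different in either direction, and the median difference over the 27 was -0.06. Syk was among the 4 under the floor on both arrays, with 4.23 on the array labelled HuR-deficient and 4.07 on the wildtype array, and Vav2, Vav3 and Traf6 were the others. Fcer1g, the chain that MCL, Mincle and Dectin-2 need at the surface, had 11.59 on the array labelled HuR-deficient and 11.66 on the wildtype array. Tyrobp had 12.37 on the array labelled HuR-deficient and 12.43 on the wildtype array. Signals this high may be compressed, which was not tested. Hcst lay lowest at -0.67 and the kinase gene Src highest at 0.48. Card9, the adaptor downstream of Syk, differed by 0.47.

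Other receptors that pair with Fcer1g or Tyrobp were divided. Of 13 measured, 11 passed the filter, 3 were lower and 0 higher by 2-fold or more, with a median of 0.06. Beside them, 1.11% of all genes that passed were lower and 0.882% higher by as much. The list was drawn up with earlier results known, so nothing is read from the gap. The lower ones were Sirpb1c (2.63, under the floor, on the array labelled HuR-deficient and 4.84 on the wildtype array, difference -2.21), Sirpb1a (5.54 on the array labelled HuR-deficient and 7.44 on the wildtype array, difference -1.91), both genes of signal-regulatory receptors, and Fcgr3 (4.97 on the array labelled HuR-deficient and 6.06 on the wildtype array, difference -1.08), which encodes a low-affinity IgG receptor. Cd300ld lay highest at 0.79. Fcgr1, the high-affinity IgG receptor gene, had 12.48 on the array labelled HuR-deficient and 12.32 on the wildtype array.

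Genes known to be induced through Syk and Card9 lay on both sides. Of 15 measured, 12 passed the filter, and the median was -0.03. By 2-fold or more, 0 were lower and 2 higher, beside 1.11% and 0.882% of all genes that passed. The higher ones were Il10 (5.08 on the array labelled HuR-deficient against 3.83, under the floor, on the wildtype array, difference 1.25) and Ptgs2, the gene of cyclooxygenase-2 (6.23 on the array labelled HuR-deficient against 5.08 on the wildtype array, difference 1.15). Cxcl2, a neutrophil chemokine gene, lay lowest at -0.71. These genes also respond to double-stranded RNA by other routes, and both cultures had received it.

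Of 14 measured myeloid transcription factor genes, 12 passed the filter, 0 reached 2-fold in either direction and the median was -0.05. Cebpb, a factor known for raising Mincle in stimulated macrophages, lay lowest, with 7.20 on the array labelled HuR-deficient and 7.88 on the wildtype array (difference -0.68). Irf8 lay highest, with 10.02 on the array labelled HuR-deficient and 9.03 on the wildtype array (difference 0.98). Spi1 had 8.65 on the array labelled HuR-deficient and 8.32 on the wildtype array.

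**Figure D4:**
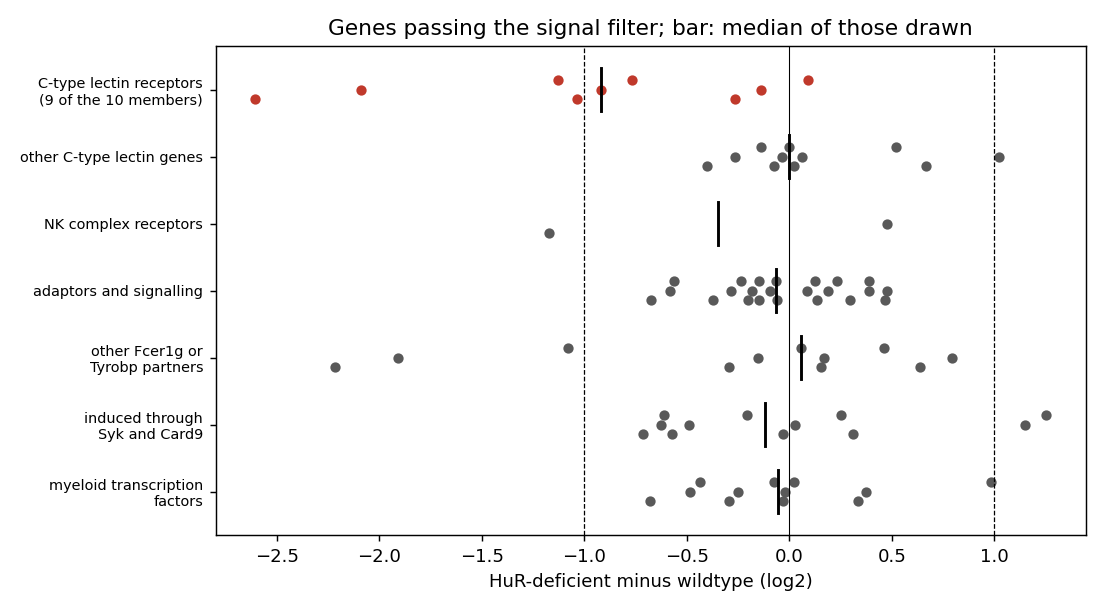
Differences (array labelled HuR-deficient minus wildtype array, log2) of the genes that passed the signal filter, 1 point per gene, for 9 of the 10 lectin receptor genes in red and for the 6 lists of related genes in grey; black bars are medians of the points drawn and dashed lines mark 2-fold. The lectin receptor genes reach from -2.60 to 0.09, the adaptor and signalling genes from -0.67 to 0.48. The bar of the lectin receptor genes lies at the value of Clec4n.

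Markers of the cell types that carry these receptors were set beside the results. Of 12 macrophage markers, 10 passed the filter; their median difference over the 12 was -0.07, and log2 signals ran from 3.35 to 12.48 on the array labelled HuR-deficient and from 2.78 to 12.34 on the wildtype array. Summed over the 12 genes, the log2 signals came to 92.5 on the array labelled HuR-deficient and 91.1 on the wildtype array, while the linear signals came to 14922 on the array labelled HuR-deficient and 15281 on the wildtype array, so the direction of the sum depends on the scale. Lyz2 and Cd68 had signals of 12.20 and 11.34 on the array labelled HuR-deficient, against 12.34 and 11.55 on the wildtype array. Adgre1, an adhesion receptor gene of mature macrophages, was 2.96-fold higher, with 6.51 on the array labelled HuR-deficient and 4.94 on the wildtype array. Cd163 and Mertk were under the floor on both arrays.

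Neutrophils also carry several of these receptors. Of 10 neutrophil markers, 2 passed the filter, and their median difference over the 10 was -0.20. Summed over the 10 genes, the log2 signals came to 34.1 on the array labelled HuR-deficient and 36.7 on the wildtype array. Most of that gap came from S100a8 alone, and of the 10 differences 7 lay below 0 and 3 above. Mpo, Elane, Ly6g, Camp, Ltf, S100a9, Retnlg and Ngp lay under the floor on both arrays. S100a8 had 4.04, under the floor, on the array labelled HuR-deficient and 6.31 on the wildtype array (difference -2.27). Cxcr2 had 4.86 on the array labelled HuR-deficient and 4.12, under the floor, on the wildtype array (difference 0.74). Dendritic cell markers had 4 of 8 genes past the filter and a median of -0.05, with no signal above 5.68 on the array labelled HuR-deficient or 5.66 on the wildtype array. Both cultures were RAW264.7 cells, a macrophage line, so these marker signals describe that line and are no count of other cells. Whether the marker genes bear on the lower receptor signals was not tested.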

How the data were processed

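Per the labels, total RNA of 2 cultures was biotin-labelled and hybridised to 1 Affymetrix array each. The deposited table holds log2 signals per probe set, made by the authors with RMA per the submitters' processing notes; its version, annotation and build are not stated in the sources used here. The method gives both arrays nearly the same signal distribution and compresses weak signals, so a change in total mRNA cannot be seen. The values, 0.434 to 13.77, show the log2 scale. No detection calls were used, so a signal under the floor is not shown to be absent. With 1 array per group, precision is limited by their number.

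The platform's table gave the gene symbols of probe sets (23521 with 1 symbol, 1814 with several, 16010 with none). Where a gene had more than 1 probe set, that of highest mean signal stood for it. The receptor genes and all lists were chosen with earlier results of these data known. Named genes were the 10 receptor genes, Elavl1 and, per related list, all genes past 2-fold and the highest and lowest that passed the filter; Cd209c, Fcer1g, Tyrobp, Card9, Syk, Vav2, Vav3, Traf6, Fcgr1, Spi1, the markers and the chromosomal neighbours were named beyond this rule, after their values were seen. Gene order, with no coordinates, came from RefSeq genes of GRCm38.p6, which may not be the array's build. The 9-letter motifs were chosen after 10-letter forms had been searched, which matched Clec4d and Clec2d for the response element and 0 genes for NF-kappaB. The steps for differences, loess trend and quantile normalisation were tested on simulated data, with large shifts in genes of clear signal. That test did not cover genes near the threshold or the floor, the lists or the promoters. Alternatives were centring, quantile normalisation, removal of a loess trend (span 0.3), averaging of probe sets, and other filters and thresholds. Computations ran in Python 3.11.15 with pandas 2.3.3, numpy 2.4.6, matplotlib 3.10.9 and statsmodels 0.14.6.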

Additional observations from a re-analysis of the deposited data

How the results depend on the processing

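The 4 genes Clec4a2, Clec4a3, Clec4d and Clec7a were the ones at least 2-fold lower under removal of a loess trend and under renewed quantile normalisation. Centring, averaging of probe sets, no filter, and a filter that both arrays had to pass gave the same 4. These alternatives could not move them, because the median difference was 0, each had 1 probe set and their signals lay above the floor on both arrays. At a threshold of 3-fold, 2 genes (Clec4a2 and Clec4a3) were lower, beside 0.277% of all genes that passed the filter. At 1.5-fold 6 were, Clec4n and Clec4e with them, beside 5.32% of all genes that passed. Under the alternatives that act on the values, Clec7a ranged from -1.04 to -1.03 and Clec4n from -0.96 to -0.92. Of all genes, 132 were at least 2-fold lower and 105 higher; with no filter 232 were lower and 185 higher, and with both arrays at the floor or above 76 were lower and 55 higher. At 1.5-fold these counts were 633 and 648, and at 3-fold 33 and 22. With the loess trend removed, Clec2l was no longer 2-fold higher, which left 0 such other C-type lectin genes. The median of 7 fibroblast markers was -0.15, and 0.062 with probe sets averaged. No paired analysis was possible because each group has 1 array. Signal limits the reading of Clec4a1, Clec4a4, Clec4b1 and Clec4b2, under the floor on both arrays, and of Clec4n, under it on 1.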

Other observations

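Many lectin-like receptors of NK cells are encoded near Clec2d and Clec7a. Of 19 measured genes with Klr symbols, whose positions were not looked up, 2 passed the filter. Of these, 1 was lower and 0 higher by 2-fold or more, beside 1.11% and 0.882% of all genes that passed. The median difference over the 19 was -0.01. The lower one was Klra2, which encodes Ly49B, a Ly49 receptor known from myeloid cells, with 5.35 on the array labelled HuR-deficient and 6.52 on the wildtype array (difference -1.17). Klrg2 had 7.50 on the array labelled HuR-deficient and 7.03 on the wildtype array (difference 0.48). Markers of NK and T cells had 4 of 8 genes past the filter and a median of 0.03, and those of B cells 1 of 5 and a median of -0.17.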
